A study of Mus musculus with 18 samples.

Results

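Mst1r encodes the receptor tyrosine kinase RON, and it was 1 of the 45777 genes in the deposited table of bone marrow-derived mast cells (BMMC). The gene was picked by its symbol because its reads rose late and more in KO than in WT cells. Its own values are therefore a description and are given with no test.

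Libraries of 2 genotypes were compared at 3 levels, with 3 libraries in each of the 6 groups. KO cells (LysM-Cre; Sirt6 flox/flox) and WT cells (Sirt6 flox/flox) shared the floxed Sirt6 alleles. Only KO cells had the Cre recombinase, whose lysozyme M promoter works in cells of the myeloid lineage. The levels were 0, 20 and 60, with no unit in the labels; the treatment label named LPS at 20 and 60 and nothing at 0, whereas the title of the series names the IgE receptor FcεRI. Each group held the numbers 4120, 414 and 6110. Libraries that share a number and genotype are called a culture below, only as a name, and the number a culture number. The labels do not say whether a number is a separate animal or culture, or whether the levels of a number came from the same cells. The p-values below therefore cover no more than the scatter among these libraries, which may be technical.

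RON is the cell surface receptor for macrophage-stimulating protein, which is secreted as an inactive precursor by the liver and is encoded by Mst1. It belongs to the same small family as Met, the receptor for hepatocyte growth factor, and it signals through docking proteins such as GRB2 and GAB1 to the PI3-kinase and MAP kinase pathways. In mouse macrophages it is known for restraining inflammatory responses to LPS. A shorter form that lacks most of the extracellular part is made in mice from a start site inside the gene.

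In the RefSeq annotation of GRCm38, Mst1r (gene ID 19882; synonyms CD136, Ron and STK) lies on the plus strand of chromosome 9, from 107906858 to 107920383. Its RefSeq transcripts began at 2 places, 107906889 and 107915003, which are 8114 bases apart. The second start lies in the intron after exon 10 of the full-length GENCODE transcript Mst1r-201, which has 19 exons and 4722 bases, and 1789 of those exonic bases lie downstream of it. GENCODE also begins a short transcript with a retained intron, Mst1r-203, at that base. The sequences before both starts are shown because reads of the gene were more abundant at 60 than at 0 in all 6 cultures and because the deposited values, given further on, differ in the transcript length they imply. They are from RefSeq, GRCm38.p6, plus strand: chr9:107906639-107906857 for the upstream window, which ends before the first base of the gene, and chr9:107914753-107915002 for the internal one. Capitals mark matches, on either strand, to the NFAT, SP1, GATA, ETS and RUNX motifs spelled out in the paragraph that follows.
Mst1r upstream window: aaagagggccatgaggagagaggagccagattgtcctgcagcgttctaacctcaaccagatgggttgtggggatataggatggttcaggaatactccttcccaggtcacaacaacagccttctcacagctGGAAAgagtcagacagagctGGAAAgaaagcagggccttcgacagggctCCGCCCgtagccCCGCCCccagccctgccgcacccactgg
Mst1r internal window: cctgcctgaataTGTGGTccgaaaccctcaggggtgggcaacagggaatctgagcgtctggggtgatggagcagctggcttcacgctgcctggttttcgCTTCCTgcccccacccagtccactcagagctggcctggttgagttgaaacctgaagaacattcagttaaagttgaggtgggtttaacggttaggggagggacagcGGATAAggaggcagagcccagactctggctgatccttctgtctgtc

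The upstream window held 2 matches to the NFAT core GGAAA, beginning 120 and 100 bases before the start, and 2 matches to the SP1 motif GGGCGG, beginning 71 and 59 bases before it. Of 32851 promoter windows of the same length, 51.2% held an NFAT match and 28.3% an SP1 match. E-box letters (CANNTG), not capitalised, occurred 2 times, as in 62.0% of windows, and 1 of these shared a base with the NFAT match at 120. The internal window held 1 match to the GATA motif NGATAA 46 bases before its start (22.5% of windows), 1 to the ETS motif AGGAAG at 151 (29.5%), 1 to the RUNX motif TGTGGT at 238 (14.0%) and 1 E-box (66.2%). Neither window held the AP-1 motif TGANTCA, the CRE motif TGACGTCA, the EGR motif GCGNGGGCG or the STAT motif TTCNNNGAA. NF-kB and SRF motifs, searched by their usual consensus, were not matched either. GC content was 58.0% upstream and 56.4% in the internal window, against medians of 52.1% and 52.4% over all windows. These matches are letters in the genome and not measured binding.

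Libraries held 20026054 to 42265435 reads assigned to genes, and 15 mitochondrial genes took 4.07% to 41.7% of them. Sirt6, the deleted gene, was counted at 10.4 to 21.1 CPM in KO libraries and 9.73 to 16.9 CPM in WT libraries, but a count over the whole gene checks no genotype label, because the labels do not name the exons removed. Of 12 mast cell markers 11 were in the table, with none at 0 in any library; Cpa3, the mast cell carboxypeptidase, averaged 11500 CPM in KO cells and 12600 CPM in WT cells at level 60. CPM (read counts scaled to a common library size with TMM factors) are used throughout, and 3 reads correspond to 0.0688 to 0.184 CPM.

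At level 0 Mst1r had 5, 0 and 12 reads in KO cells of numbers 4120, 414 and 6110, against 9, 16 and 21 reads in WT cells. These are 0.143, 0 and 0.275 CPM in KO and 0.554, 0.537 and 0.657 CPM in WT. All 3 KO libraries lay below all 3 WT libraries, at a depth of 17 reads in KO and 46 reads in WT in all. The group means were 0.139 ± 0.138 CPM in KO and 0.583 ± 0.0653 CPM in WT (SD, n = 3 each).

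At level 20 Mst1r had 33, 54 and 60 reads in KO cells, against 31, 97 and 98 reads in WT cells. In CPM these were 1.08, 2.02 and 1.72 in KO and 1.39, 2.96 and 2.99 in WT. Each culture of both genotypes was above its own value at 0, and the KO and WT libraries overlapped. The means were 1.61 ± 0.481 CPM in KO and 2.45 ± 0.914 CPM in WT (SD, n = 3 each).

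At level 60 Mst1r had 374, 309 and 897 reads in KO cells, against 79, 78 and 419 reads in WT cells. In CPM these were 11.3, 18.9 and 21.9 in KO and 2.26, 4.13 and 12.7 in WT. WT number 6110 stood apart from the other WT libraries of this level and above KO number 4120, so the groups overlapped. The means were 17.4 ± 5.46 CPM in KO and 6.37 ± 5.57 CPM in WT (SD, n = 3 each).

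**Figure D1:**
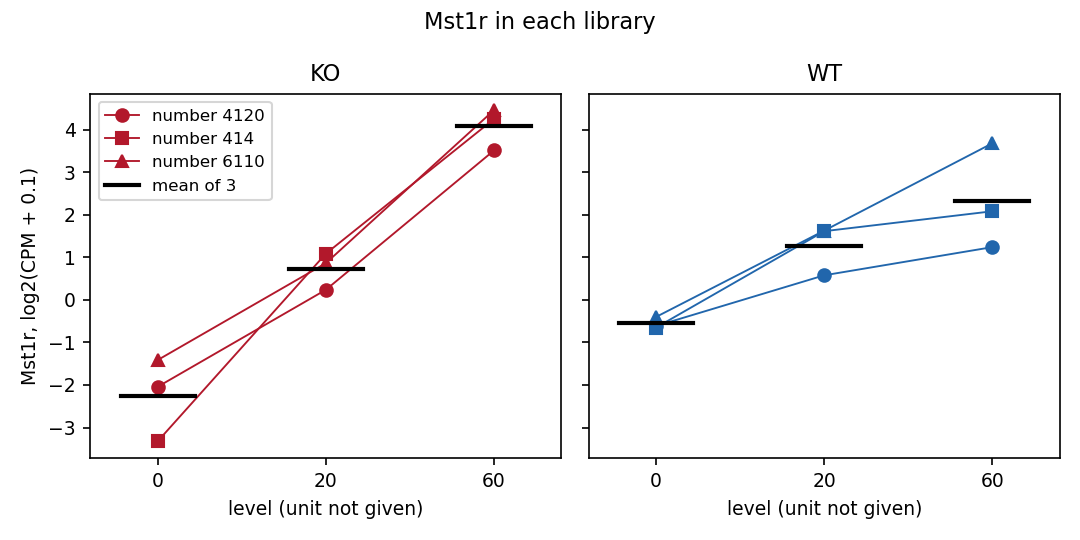
Mst1r in each of the 18 libraries on a log2(CPM + 0.1) scale, by level (unit not given), KO left and WT right; lines join libraries of the same number and black bars are means of 3 log values. In KO the 3 libraries at 60 (11.3 to 21.9 CPM) lie above every library at 20 (1.08 to 2.02 CPM); in WT number 4120 at 60 (2.26 CPM) lies below 2 libraries at 20 (2.96 and 2.99 CPM).

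Ordered by level, the 3 KO libraries at 60 and WT number 6110 at 60 were the 4 libraries above 10 CPM, and the remaining WT libraries at 60 were mixed with those at 20. KO at 60 overlapped WT at 60, which overlapped WT at 20, which in turn overlapped KO at 20. WT at 0 lay below all of these and above KO at 0.

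Fitted by edgeR over all 6 groups, the log2 difference of Mst1r at 20 against 0 was 3.35 (SE 0.72) in KO and 2.06 (SE 0.65) in WT. At 60 against 0 it was 6.78 (SE 0.78) in KO, a 110-fold difference that rests on 17 reads at 0, and 3.44 (SE 0.67) in WT, a 10.8-fold difference. Without KO number 6110 at 0, which held 12 of the 17 reads, the KO difference was 4.24 at 20 against 0 and 7.67 at 60 against 0; without number 414 as a whole these were 2.71 and 6.26. At 60 against 20 the difference was 3.43 (SE 0.64) in KO and 1.38 (SE 0.60) in WT. Without WT number 6110 at 60, the WT difference was 2.42 at 60 against 0 and 0.35 at 60 against 20.

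The same steps can be read within each culture. From its own level 0, Mst1r CPM at 60 was 79.1-fold higher in KO number 4120, at least 152-fold higher in number 414, counted against a floor of 3 reads in that library, and 79.4-fold higher in number 6110. In WT it was 4.08-fold, 7.70-fold and 19.3-fold higher in these numbers. The ratio of level 60 over level 20 was 10.5, 9.36 and 12.7 in KO, against 1.62, 1.40 and 4.25 in WT. By CPM, all 3 KO ratios exceeded all 3 WT ratios in both of these steps, a pattern for which the gene was picked. At 20 over 0 the ratios were 7.55, at least 16.2 and 6.24 in KO, against 2.51, 5.51 and 4.55 in WT.

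KO against WT, the fitted log2 difference of Mst1r was −1.90 (SE 0.74) at 0, −0.61 (SE 0.60) at 20 and 1.44 (SE 0.59) at 60. The genotype difference therefore ran in opposite directions at 0 and at 60. The difference between the KO and WT responses was 1.28 (SE 0.94) at 20 and 3.34 (SE 0.95) at 60, and the value at 60 takes in the lower start of the KO cells as well as their higher end. Without WT number 6110 at 60 the KO against WT difference at 60 was 2.48.

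Within a number, KO over WT at 60 was 4.99 in number 4120, 4.58 in number 414 and 1.72 in number 6110 when taken from CPM. At 20 the ratios were 0.774, 0.683 and 0.574. At 0 they were 0.258 in number 4120 and 0.419 in number 6110, and KO number 414, with no read, was at least 4.31-fold lower than its WT partner, by the same floor of 3 reads. By CPM each number thus lay below 1 at 0 and 20 and above 1 at 60.

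**Figure D2:**
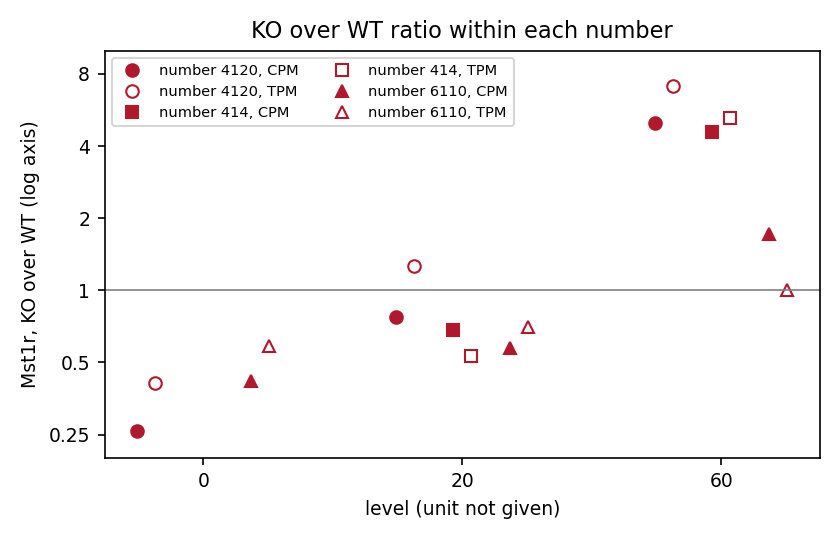
KO over WT ratio of Mst1r within each number (log axis), by level (unit not given), from CPM (filled) and from the deposited TPM (open); number 414 at 0 is not drawn because KO had no read. At 60 the 3 ratios from CPM are 4.99, 4.58 and 1.72, and the ratio from TPM of number 6110 is 1.00.

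The deposited TPM, which also divide by transcript length, gave other values for number 6110 at 60 and number 4120 at 20. At 60 they were 6.71, 5.07 and 9.44 TPM in KO, against 0.942, 0.969 and 9.42 TPM in WT. Number 6110 was thus equal in both genotypes by TPM, with a KO over WT ratio of 1.00, against 7.12 in number 4120 and 5.23 in number 414. At 20 the values were 0.454, 0.712 and 0.711 TPM in KO and 0.361, 1.34 and 1.01 TPM in WT, so that number 4120 had a KO over WT ratio of 1.26 by TPM, against 0.774 by CPM. Between 20 and 60, TPM went from 0.712 to 5.07 in KO number 414 and from 1.01 to 9.42 in WT number 6110. By TPM the ratio of 60 over 20 was thus lower in this KO number than in this WT number, unlike by CPM. The group means at 60 were 7.07 ± 2.21 TPM in KO and 3.78 ± 4.89 TPM in WT (SD, n = 3 each).

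Dividing each library's read count by the deposited FPKM gives the transcript length those values imply, scaled here on 1878 to 2244 genes per library that have 1 annotated transcript. This comparison was chosen after CPM and TPM were seen to differ. At 60 the implied length of Mst1r was 3475, 4090 and 3887 bases in KO, against 4901, 4780 and 1910 bases in WT. At 20 all 6 libraries gave 4822 to 5027 bases. At 0 the 5 libraries with reads gave 5052 to 6020 bases, from 5 to 21 reads each. The 4 libraries above 10 CPM were also the 4 with an implied length of 4090 bases or less, and the value of WT number 6110 lies near the 1789 exonic bases downstream of the internal start.

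KO over WT, the implied length at 60 was 0.709 in number 4120, 0.855 in number 414 and 2.03 in number 6110. Genes with more than 1 annotated transcript and at least 50 reads in both libraries were compared, 8348, 7621 and 8367 of them in these numbers. Of those genes 1.49%, 7.36% and 0.394% were at least as far from 1. Single transcript genes spread from 0.536 to 1.14 of their annotated length between the lowest 5th and highest 95th percentiles of the 18 libraries. No source used here names the transcripts behind the deposited FPKM, and which starts were used was not tested.

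**Figure D3:**
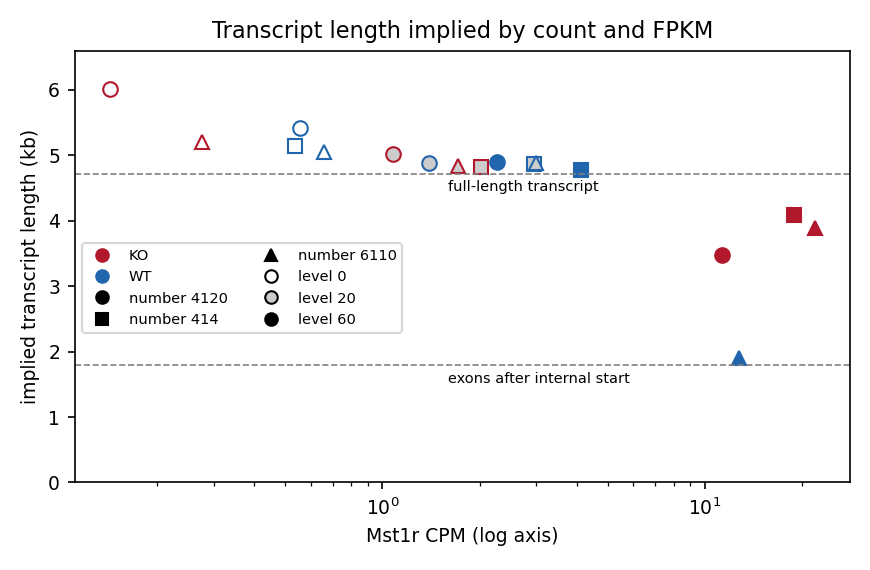
Transcript length implied by read count and deposited FPKM (kb) against Mst1r CPM (log axis) in the 17 libraries with reads; dashed lines are the full-length transcript (4722 bases) and its exons after the internal start (1789 bases). The 13 libraries below 10 CPM lie between 4780 and 6020 bases and the 4 above it between 1910 and 4090 bases.

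Reads of Mst1r could come from few cells with much transcript or from many with little, and in bulk samples fewer cells of a type and less RNA per cell cannot be told apart. The summed CPM of 16 macrophage markers at 60 was 75.5 to 129.5 in KO and 50.3 to 124.3 in WT, and at 0 it was 98.9 to 162 in KO and 59.9 to 94.5 in WT. Cx3cr1, a chemokine receptor, made up most of that sum, with means of 82.9 CPM in KO cells and 67.6 CPM in WT cells at 60. Timd4, a marker of resident macrophages, had 0 reads in all groups, and the complement gene C1qa had 3 reads in KO and 3 in WT at 60. Of the 16 markers 8 had enough reads to be tested. KO against WT at 60, 6 of these had a positive log2 difference, with a median of 0.80 against 0.02 over all genes tested. By edgeR 4 had an unadjusted p under 0.05, as did 1843 of all 17159 genes tested, and none was called. Itgam, the integrin chain CD11b that macrophages share with neutrophils, averaged 1.08 CPM in KO cells and 0.0337 CPM in WT cells at 0. It was the 1 marker called there by edgeR, where 0.0991% of all genes tested were higher (log2 difference 4.70, SE 0.90, adjusted p = 0.033 with Benjamini-Hochberg adjustment), and its call was lost without any 1 of the 3 numbers. It was also lost without KO numbers 4120 or 414 at 0 and without WT numbers 4120 or 6110 at 0. Lyz2, the lysozyme gene that carries the LysM-Cre insertion, averaged 0.0603 CPM in KO cells and 1.97 CPM in WT cells at 60. It was not called at any level by edgeR (adjusted p = 0.086 at 60) but was lower in KO at all 3 levels by DESeq2. The fit with the culture number as a block also called it at all 3 levels. The summed CPM of 11 neutrophil markers was higher in KO at every level without overlap: 7.76 to 14.3 in KO against 0.47 to 1.78 in WT at 0, and 13.2 to 23.0 in KO against 0.106 to 5.41 in WT at 60. Of these markers 9 were tested, and edgeR called none KO against WT at any level. At each level 5 had an unadjusted p under 0.05, as did 2078, 1336 and 1843 of all 17159 genes at 0, 20 and 60. The median log2 difference of the 9 markers at 60 was 2.69, against 0.02 over all genes tested. DESeq2 called Lcn2 and Ly6g at 0, and the fit with the culture number as a block called S100a9 at 0 and 20. Ly6g, a neutrophil surface protein, had 0.453, 9.85 and 0.244 CPM in KO cells of numbers 4120, 414 and 6110 at 60, against 0.229, 0 and 0 CPM in WT cells, so that KO number 414 carried most of it. Summed CPM of 8 epithelial markers was 0.171 to 1.78 in KO and 0.229 to 0.848 in WT at 60, with Epcam averaging 0.315 CPM in KO cells and 0.235 CPM in WT cells, and that of 8 erythroid markers was 23.4 to 31.4 in KO and 17.9 to 22.8 in WT. Their part in the Mst1r values was not tested.

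At 60 the mitochondrial share of reads was 4.45%, 34.5% and 4.27% in KO and 8.80%, 41.7% and 15.7% in WT for numbers 4120, 414 and 6110. Number 414, with the highest shares in both genotypes, had 18.9 CPM of Mst1r in KO and 4.13 CPM in WT. Leaving the mitochondrial genes out before scaling kept every fitted difference of Mst1r within the spread between replicates.

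The genes around the receptor were taken from lists of its known pathway, chosen with earlier results of these data known, and tested across 17159 genes with edgeR. As background, 0.443% of all genes tested were higher and 0.00583% lower in KO at 20 against 0, and 1.99% were higher and 0.554% lower in KO at 60 against 0. In WT 0.6% were higher and 0% lower at 20 against 0, and 0.198% were higher and 0.0233% lower at 60 against 0. KO against WT, 0.0991% were higher and 0.175% lower at 0, 0.0583% higher and 0.152% lower at 20, and 0.0816% higher and 0.186% lower at 60. The response at 60 differed between genotypes in 0% of genes in either direction by edgeR, where 188 genes had an unadjusted p under 0.05 and DESeq2 called 2. For the other comparisons, in the order above, 554, 2440, 990, 1363, 2078, 1336 and 1843 of the 17159 genes had an unadjusted p under 0.05 by edgeR. Called means an adjusted p under 0.05.

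Of 9 genes for the ligand and its activation, 8 were tested and none was called in any of these 8 comparisons; at most 1 had an unadjusted p under 0.05 in a comparison, and DESeq2 called none. Mst1, which encodes the ligand, was close to the floor: it had 9, 0 and 3 reads in KO and 13, 2 and 6 reads in WT at 60, with means of 0.115 CPM in KO and 0.22 CPM in WT. It lies on chromosome 9 too, from 108080409 to 108085027, 173551 bases from the start of the receptor gene. Hgfac, a serine protease that cleaves the ligand precursor, averaged 358 CPM in KO cells and 417 CPM in WT cells at 60. Hpn, which encodes the membrane protease hepsin, averaged 16.8 CPM in KO and 20.4 CPM in WT. Spint1 and Spint2 encode inhibitors of these proteases and averaged 10.9 and 4.69 CPM in KO, against 20.8 and 3.33 CPM in WT. St14, the gene for matriptase, averaged 0.923 CPM in KO cells and 0.647 CPM in WT cells at 60, and Tmprss11d, a further protease, had 0 reads in all libraries.

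The receptor Met had 20 reads in KO and 7 in WT at 60 over 3 libraries each, too few to be tested. Its ligand gene Hgf was higher on average at 60 than at 0 in both genotypes: 35.0, 18.5 and 17.2 CPM at 60 against 14.1, 9.98 and 14.8 CPM at 0 in KO, and 39.3, 25.7 and 23.0 CPM at 60 against 31.0, 14.5 and 14.2 CPM at 0 in WT. Every culture was above its own level 0, but the log2 difference of 0.86 (SE 0.40) in KO had an adjusted p of 0.35 and that of 0.56 (SE 0.40) in WT an adjusted p of 0.84 by edgeR with Benjamini-Hochberg adjustment. Of 11 receptors known to work with RON, 9 were tested and none was called in any comparison by edgeR, with up to 2 at an unadjusted p under 0.05. DESeq2 also called none. The most abundant was Csf2rb, the shared β chain of the IL-3, IL-5 and GM-CSF receptors, at 2590 ± 757 CPM in KO cells and 2240 ± 447 CPM in WT cells at 60 (SD, n = 3 each). Epor, the erythropoietin receptor, averaged 23.4 CPM in KO cells and 18 CPM in WT cells. It was called KO against WT at 20 by the fit with the culture number as a block.

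All 20 adaptors and effectors of RON were tested, and none was called in any comparison by edgeR, where at most 3 had an unadjusted p under 0.05 in a comparison, or by DESeq2. Gab2, a docking protein, averaged 88.6 CPM in KO cells and 79.0 CPM in WT cells at 60. The median log2 difference of the list at 60 against 0 was 0.04 in KO and 0.03 in WT, against 0.00 and −0.02 over all genes tested. With the culture number as a block, Sos2, an exchange factor for RAS, was also called in KO at 60 against 0. That fit called 1094 of the 17159 genes tested there.

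Among 15 genes that RON is known to regulate in mouse macrophages, 8 had enough reads to be tested. Il6, Tnf, Ptgs2 (the prostaglandin synthase COX-2) and Ccl2 (a monocyte chemokine) rose in KO at 20 and at 60 against 0 and in WT at 20, and by edgeR Ptgs2 alone was called in WT at 60. DESeq2, the fit with the culture number as a block, and edgeR without WT number 414 at 60 each called Il6, Ptgs2 and Tnf there. The median log2 difference of the 8 was 1.70 at 60 against 0 in both genotypes. None of the 8 was called KO against WT at any level by edgeR. At 60, 4 of them had an unadjusted p under 0.05, as did 1843 of the 17159 genes tested. On average the 4 named genes were highest at 20 in both genotypes, whereas Mst1r was highest at 60. Without WT number 6110 at 60, or without number 6110 as a whole, Il6 and Ptgs2 were called higher in KO than WT at 60, as they were by DESeq2.

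Tnf, the inflammatory cytokine, averaged 2.87 CPM at 0, 1020 CPM at 20 and 99.1 CPM at 60 in KO, and 6.44, 717 and 34.1 CPM at these levels in WT. At 60 its CPM was 95.1, 77.3 and 125 in KO and 19.4, 14.5 and 68.5 in WT, so that WT number 6110 was again the highest WT library. Its log2 difference at 60 against 0 was 5.10 (SE 0.64, adjusted p = 0.00041) in KO and 2.4 (SE 0.56, adjusted p = 0.12) in WT by edgeR with Benjamini-Hochberg adjustment.

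Ptgs2 was at 41.4, 32.1 and 26.9 CPM in KO and 6.10, 8.90 and 15.0 CPM in WT at 60, with no overlap. KO against WT its log2 difference was 1.74 (SE 0.40, adjusted p = 0.096), and that of Il6 was 1.94 (SE 0.40, adjusted p = 0.057), by edgeR with Benjamini-Hochberg adjustment. The Ptgs2 call in WT at 60 was lost without numbers 4120 or 414, without WT number 414 at 0 or without WT number 6110 at 60. The Ccl2 call in KO at 60 was lost without any 1 of the 3 numbers, and without number 4120 Ptgs2 alone was called there; at 20 Ccl2 was not called without numbers 4120 or 6110 in either genotype. With the culture number as a block, Socs1 and Socs3, feedback inhibitors of cytokine signalling, were also called in KO at 60 against 0, Socs3 in WT at 20 against 0, and Il6 KO against WT at 60. Arg1, an arginase that RON induces in macrophages, and Nos2, the inducible nitric oxide synthase, stayed close to the floor, with 16 and 2 reads in KO and 11 and 1 in WT at 60.

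Of 57 other receptor tyrosine kinase genes, 28 were tested and none was called at 20 or 60 against 0 in either genotype by edgeR, where at most 2 had an unadjusted p under 0.05; DESeq2 called Styk1 alone, in KO at 60. Epha3, an ephrin receptor, had the highest log2 difference of the 28 in KO at 60 against 0, at 1.16 (SE 0.62), with means of 2.86 CPM at 60 and 1.28 CPM at 0. Kit, the stem cell factor receptor that mast cells depend on, averaged 1710 CPM at 60 and 2470 CPM at 0 in KO, and 1110 CPM at 60 and 1350 CPM at 0 in WT. Its log2 difference was −0.53 (SE 0.28, adjusted p = 0.43) in KO and −0.29 (SE 0.28, adjusted p = 0.93) in WT by edgeR with Benjamini-Hochberg adjustment.

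Styk1, an atypical member of this family, was the 1 receptor called KO against WT by edgeR, and it was lower in KO at each level. DESeq2 also called Kit at 0, where the mean of Kit was higher in KO than in WT. At 60 Styk1 had 5.92, 5.39 and 5.15 CPM in KO and 119, 313 and 195 CPM in WT. Its log2 difference there was −5.25 (SE 0.54, adjusted p = 9.9e-05) by edgeR with Benjamini-Hochberg adjustment. Its call was lost at 0 and at 20 without number 6110. With the culture number as a block, Ryk, a WNT receptor, was also called KO against WT at 0, 20 and 60. It was lower in KO at 60, where its log2 difference without the block was −0.78 (SE 0.30, adjusted p = 0.37, edgeR).

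Levels of different genes are compared per transcript length. By mean TPM among 58 receptor genes, Mst1r ranked 26 at 0, 14 at 20 and 7 at 60 in KO, and 20, 14 and 9 in WT. Without number 6110, whose implied length was the shortest, the WT mean at 60 was 0.955 TPM and the rank 13; that comparison was added after the data were seen. At 60 in KO the receptors above its 7.07 TPM were Kit (560 TPM), Fgfr1 (74.3), Ryk (20.7), Insr (11.7), Igf1r (9) and Tek (8.24).

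**Figure D4:**
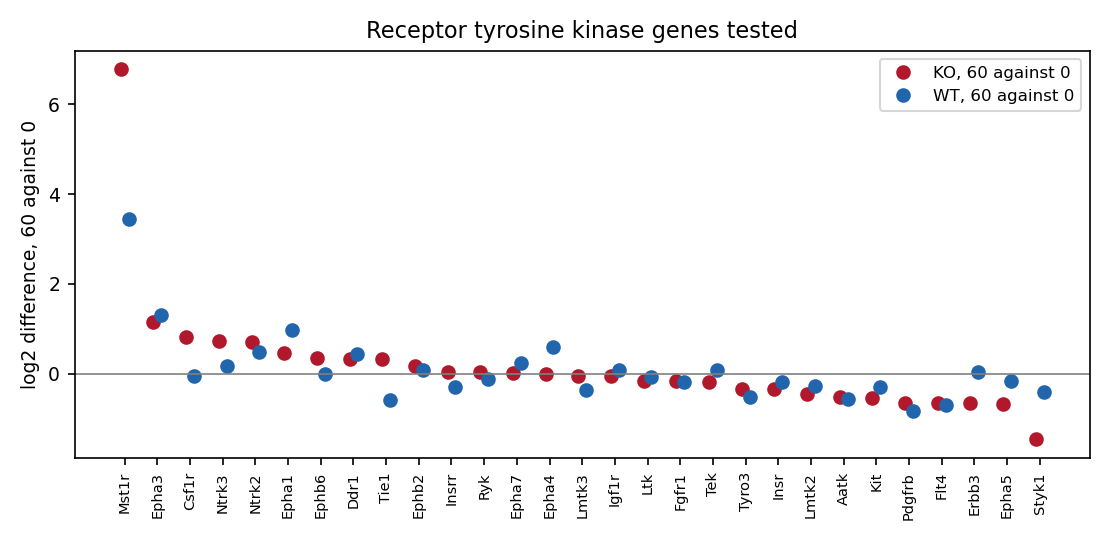
Fitted log2 difference at 60 against 0 for Mst1r, which was chosen for this pattern, and the 28 other receptor tyrosine kinase genes tested, KO (red) left of WT (blue), ordered by the KO value. Mst1r is at 6.78 in KO and 3.44 in WT; the next gene, Epha3, is at 1.16 in KO.

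Position was not used to pick the gene, so its neighbours on chromosome 9 were tested. Of the 5 protein-coding genes on each side, Sema3f, Rbm5, Rbm6, Mon1a, Traip, Uba7 and Inka1 were tested, Gnat1, Actl11 and Camkv were not, and no gene overlapped Mst1r. None of the 7 was called in any of the 8 comparisons by edgeR or DESeq2, and at most 1 had an unadjusted p under 0.05 in a comparison. Mon1a, a membrane trafficking gene and the nearest gene upstream, ending at 107903139, averaged 70.8 CPM at 60 and 32.6 CPM at 0 in KO, and 39.5 CPM at 60 and 26.1 CPM at 0 in WT. Its log2 difference at 60 against 0 was 1.12 (SE 0.38, adjusted p = 0.16) in KO and 0.60 (SE 0.38, adjusted p = 0.80) in WT by edgeR with Benjamini-Hochberg adjustment. With the culture number as a block it was called in KO at 60 against 0, where that fit called 1094 of 17159 genes. The 7 neighbours had log2 differences of −0.55 to 1.12 in KO and −0.52 to 0.60 in WT at 60 against 0.

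Over the 18 libraries, the log2 CPM of 13212 genes that averaged 1 CPM or more was set against that of Mst1r by Pearson's r, as a description in which the libraries share groups and numbers. The median r was −0.01, and 13 genes exceeded 0.9. The 12 most alike were Trib1 (r = 0.948), Sult2b1 (0.934), Gm42142 (0.927), Cd33 (0.926), Spry2 (0.923), 4833419F23Rik (0.921), Srxn1 (0.919), LOC115489026 (0.917), Abl2 (0.917), Fbl (0.914), Gzmd (0.912) and Dot1l (0.909).

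Trib1, a pseudokinase that brings substrates to a ubiquitin ligase, had 24.8, 17.5 and 35.6 CPM in KO and 7.27, 10.6 and 22.1 CPM in WT at 60. Its means were 0.96, 7.51 and 26.0 CPM at 0, 20 and 60 in KO, and 2.03, 9.51 and 13.3 CPM in WT. Like Mst1r it was lower in KO than WT at 0 and 20, higher in KO at 60 on average, and highest among WT libraries in number 6110 at 60. The alike genes were chosen for their likeness over these same libraries, so features they share with Mst1r are a description and no separate result. Gzmd, a granzyme, had 4.35, 3.98 and 5.32 CPM in KO and 0.572, 1.75 and 3.31 CPM in WT at 60.

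Spry2, a feedback inhibitor of receptor tyrosine kinase signalling, had 43.6, 47.4 and 55.9 CPM in KO and 27.4, 38.7 and 49.5 CPM in WT at 60. Dot1l, a histone H3 methyltransferase, had 691, 539 and 702 CPM in KO and 268, 398 and 583 CPM in WT. Abl2, a cytoplasmic tyrosine kinase, had 58.2, 68.9 and 67.9 CPM in KO and 39.1, 56.2 and 70.3 CPM in WT. Number 6110 gave the highest WT value at 60 in each of these 3 genes.

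Cd33, a sialic acid receptor, averaged 247 CPM in KO cells and 230 CPM in WT cells at 60, against 43.0 CPM in KO cells and 49.9 CPM in WT cells at 0. Srxn1, the antioxidant enzyme sulfiredoxin, averaged 1980 CPM in KO cells and 1230 CPM in WT cells at 60. Sult2b1, a sterol sulfotransferase, averaged 10.2 CPM in KO and 6.10 CPM in WT, and Fbl, a nucleolar RNA methyltransferase, 84.6 CPM in KO and 55.5 CPM in WT. None of the 12 had a fitted log2 difference at 60 against 0 as high as that of Mst1r in either genotype: they ranged up to 5.24 for Gzmd in KO and 2.74 for Gzmd in WT. The 5 least alike genes were Trim65, Zfp963, Zbtb5, Zfp362 and Zfp60, with r of −0.839 to −0.86. Zfp60, a zinc finger gene, averaged 4.62 CPM at 60 and 10.2 CPM at 0 in KO, and 7.29 CPM at 60 and 8.98 CPM at 0 in WT.

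**Figure D5:**
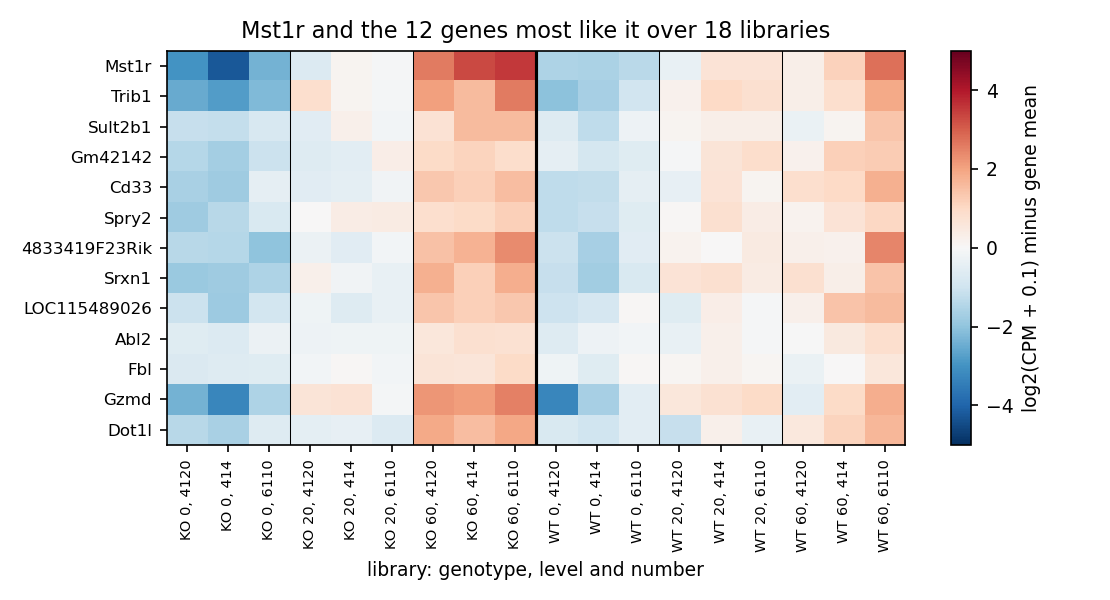
Mst1r and the 12 genes most like it: log2(CPM + 0.1) minus the mean of each gene over all libraries (colour), by library, KO left and WT right, levels 0, 20 and 60 with 3 numbers each. The columns of KO at 60 and of WT number 6110 at 60 are the reddest, and those of KO at 0 the bluest.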

How the data were processed

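Gene counts, FPKM and TPM of 18 libraries were used as deposited. Per the submitters' processing notes the tools were bcl2fastq 2.20.0, FastQC 0.11.7, HISAT2 2.1.0 and StringTie 2.1.3b with mm10; no source used here says which made each column, or how. The deposited counts are whole reads per gene, and the deposited FPKM and TPM are the authors' values, scaled for depth and transcript length. Libraries were grouped by genotype and level from the titles, and no 2 libraries of a group agreed within sampling noise (chi-square per degree of freedom at least 82.0).

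Genes were filtered with filterByExpr of edgeR 4.0.16 (R 4.3.3), which left 17159 including Mst1r, scaled by TMM and fitted by edgeR's quasi-likelihood test with 6 group means; p-values were adjusted by Benjamini-Hochberg over all genes and called below 0.05. The script was tested on simulated data. Group errors are SD over 3 libraries. The receptor and all gene lists were chosen with earlier results of these data known. Named genes are Mst1r, Mst1, Met and Hgf, pathway and receptor list members called in any comparison, neighbours in position, and the 12 most and 5 least alike genes; other list members named for their role or level were chosen after their values were seen. For likeness, a prior count of 2 was added before taking log2 CPM. Of 45777 gene IDs 99.8% matched RefSeq. Libraries of the same number deviated together from their group means at all 3 numbers in KO at 20 and 60 against 0, WT at 20 against 0 and KO against WT at 60 (r of 0.333 to 0.763), but not in the other comparisons. The blocked fit is therefore read as paired in these 4 only. Its results in other comparisons are given as an alternative setting and not as a paired test. Alternatives were other scalings, DESeq2 1.42.0, limma 3.58.1, the deposited TPM and FPKM on a log2 scale, a block on the number, and leaving out libraries. A protein sequence was not used here.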

Additional observations from a re-analysis of the deposited data

How the results depend on the processing

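Of 132 recomputed log2 differences of Mst1r (11 comparisons under 12 settings), 131 kept their direction and 114 stayed within 1 SD; all 111 values with a number or library left out kept their direction. The exception was the KO minus WT response at 20, which was −0.035 on the log2(TPM + 1) scale. That scale, whose added 1 exceeds every Mst1r value at 0, also gave 0.62 in KO at 20 and 2.90 at 60 against 0, 2.28 in KO at 60 against 20, 0.65 in WT at 20 and 1.53 at 60 against 0, −0.16 for KO against WT at 0 and 1.37 for the response at 60. On log2(TPM + 0.1) the values were 2.25 in KO at 20, 5.54 in KO at 60, −0.90 for KO against WT at 0 and 0.56 for the response at 20; on log2(FPKM + 0.1) they were 1.70 in KO at 20, 4.88 in KO at 60, 1.39 in WT at 20, −0.67 for KO against WT at 0, 0.30 for the response at 20 and 2.18 at 60. With numbers or libraries left out, KO ranged over 2.71 to 4.24 at 20 and 6.26 to 7.67 at 60 against 0, WT at 60 ranged over 2.42 to 3.84 against 0 and 0.35 to 1.78 against 20, KO against WT over −2.79 to −1.42 at 0 and 1.04 to 2.48 at 60, and the response over 0.81 to 2.2 at 20 and 2.63 to 4.92 at 60. The replicate block gave 1.64 for KO against WT at 60 and 3.57 for the response at 60. With unscaled library sizes the all-gene median moved by −0.22 in KO at 60 against 0, −0.20 against 20, −0.10 in WT at 60, 0.16 and 0.14 for KO against WT at 0 and 20 and −0.12 for the response at 60.

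Counts of genes called depended on the tool and the block. DESeq2 called 137 genes in KO at 20, 967 in KO at 60, 203 in WT at 20, 252 in WT at 60, 250, 119 and 226 for KO against WT at 0, 20 and 60, and 2 for the response at 60. The replicate block called 1094 in KO at 60, 158 in WT at 20, 206 in WT at 60, and 208, 119 and 183 for KO against WT; without it edgeR called 436, 103, 38, 47, 36 and 46. Leaving out a number gave 23 to 66 in KO at 20, 20 to 152 in KO at 60, 22 to 83 in WT at 20, 0 to 7 in WT at 60, and 20 to 38, 18 to 32 and 15 to 54 for KO against WT. Calls in the pathway lists were 7 by DESeq2 and 7 with the block in KO at 60 (1 to 4 with libraries left out), 3 and 3 in WT at 60 (0 to 3), 2 and 2 for KO against WT at 0 (0 to 1), 3 with the block at 20 (0 to 1), and 3 and 3 at 60 (1 to 3); leaving out libraries for these and the marker lists was added after the data were seen. The 12 most alike genes shared 7 with those from TPM and 6 to 9 with those from libraries without 1 number. The cause of these shifts was not tested. Depth limits the values at 0, where a KO library held at most 12 reads of Mst1r.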

Other observations

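Transcription factors that are known to answer stimulation quickly were read beside Mst1r. Of 24 such genes, all tested with edgeR, 13 were higher in KO at 20 against 0 and 14 in KO at 60, where 0.443% and 1.99% of all genes were higher. In WT 13 were higher at 20 and 2 at 60, where 0.6% and 0.198% of all genes were higher. None was lower, and none was called KO against WT, where DESeq2 called 1 at 60. There 8 had an unadjusted p under 0.05 by edgeR, as did 1843 of the 17159 genes tested. KO against WT at 60, 23 of the 24 had a positive log2 difference, with a median of 0.62 against 0.02 over all genes tested. For the KO minus WT response at 60 it was positive in 21, with a median of 0.74 against 0.02. Atf3, Egr1 to Egr4, Fos, Fosb, Fosl2 and Nr4a1 to Nr4a3 were called in KO at both levels and in WT at 20. Jun and Junb were called at 20 in both genotypes, Nfkb2, Rel and Relb in KO at 60, and Nr4a2 and Nr4a3 in WT at 60. DESeq2 called 13 and 18 in KO at 20 and 60 and 14 and 8 in WT at these levels. With edgeR and number 4120 left out, 4 were called in KO at 20, 1 in KO at 60 and 4 in WT at 20. Without number 414, 9, 10 and 6 were called in these comparisons, and without number 6110, 11, 10 and 12. In WT at 60 none was called without numbers 4120 or 414, and Atf3 alone was called without number 6110. The Nr4a2 call in WT at 60 was thus lost without any 1 of the 3 numbers. Without number 6110, or without WT number 6110 at 60 alone, Atf3 and Relb were called KO against WT at 60. Fos averaged 909 CPM at 20 and 29.0 CPM at 60 in KO, and 693 CPM at 20 and 27.9 CPM at 60 in WT. Egr1 averaged 2690 CPM at 20 and 581 CPM at 60 in KO, and 2510 CPM at 20 and 347 CPM at 60 in WT. Egr4 was highest on average at 60, as Mst1r was, with 1.78, 14.5 and 34.5 CPM at 0, 20 and 60 in KO. In WT it averaged 6.51, 47.7 and 48.7 CPM, above KO at each level. Nr4a3, an orphan nuclear receptor, was also highest on average at 60, with 30.9, 425 and 1240 CPM at 0, 20 and 60 in KO and 60.1, 515 and 627 CPM in WT. Its log2 difference at 60 against 0 was 5.33 (SE 0.71, adjusted p = 0.00078) in KO and 3.38 (SE 0.65, adjusted p = 0.044) in WT by edgeR with Benjamini-Hochberg adjustment. The WT call of Nr4a3 was lost without any 1 of the 3 numbers, without WT numbers 4120 or 414 at 0 and without WT numbers 4120 or 6110 at 60, and the KO call was lost without number 4120.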
